A study of Mus musculus with 6 samples.

Results

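The vomeronasal receptor genes Vmn1r1 to Vmn1r54 are 54 of the 176 V1R genes measured in this series, which holds 22180 genes in all. They were taken by name, as probe sets whose platform gene symbol is Vmn1r and a number from 1 to 54. This rule used no measured value, but it was set with earlier results of these data known. Each of the 54 was measured by 1 probe set, and 0 of them shared a probe set with another gene in the platform annotation. RNA of the vomeronasal organ (VNO) of mice at postnatal day 17 was hybridised to 6 Affymetrix whole-transcript arrays, 3 from wild-type mice and 3 from AP-2e null mice (null VNOs further on), to see which genes differ without the transcription factor AP-2e. The sources used here do not give strain, sex, the make of the null allele or how many animals a sample held. The titles call the samples biological replicates, so p-values measure the spread between samples, whatever each held.

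V1R receptors are G protein-coupled receptors with which the VNO, a chemosensory organ at the base of the nasal septum, detects pheromones and other social cues. They are made by the apical class of vomeronasal sensory neurons, where they signal through the G protein subunit Gnai2 and the channel Trpc2. Each of these neurons is thought to make a single V1R. The basal class of neurons makes V2R receptors and the subunit Gnao1, and AP-2e is made in basal neurons. Older V1R symbols carried a letter for the subfamily, such as V1ra, V1rb and V1rc.

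Values are log2 signals, in which a step of 1 is a doubling, and each was normalized by the authors. Any 2 arrays correlated at 0.978 to 0.992 (Pearson's r across genes, which are no independent replicates). Omp, Trpc2, Gnai2 and Gnao1, which define mature vomeronasal neurons, had wild-type means of 10.11, 7.003, 10.66 and 10.53, above the lower quartile of all probe set values (3.62). Tfap2e, the gene of AP-2e, averaged 6.71 ± 0.23 on wild-type arrays, against 6.03 ± 0.06 on AP-2e null arrays (SD, n = 3 each), without overlap, and its adjusted p in limma was 0.431. Whether its probes lie inside the disrupted stretch is unknown here, so this checks the labels only in part. AP-2e null replicate 1 stood apart in Xist, the transcript of the inactive X chromosome, at 10.64 against 3.55 to 3.58 on the other arrays. Sex is thus likely not balanced between the genotypes, and its part in the differences was not tested. Wild-type replicate 2 had the lowest mean V1R level of the 6 arrays. With 3 arrays per genotype, precision is limited.

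The members fall into 5 groups by position, if consecutive members less than 1 Mb apart in the RefSeq gene table (assembly GRCm38.p6) are counted as neighbours. These are Vmn1r1 alone, the pair Vmn1r2 and Vmn1r3, the 28 genes Vmn1r4 to Vmn1r31, the 8 genes Vmn1r32 to Vmn1r39 and the 15 genes Vmn1r40 to Vmn1r54. In the older naming of that table, 25 genes of the block of 28 and 6 of the block of 8 are V1rc genes, and all 15 of the last block carry V1ra or V1rb names. No such name is given for Vmn1r1, Vmn1r2, Vmn1r3, Vmn1r12, Vmn1r20, Vmn1r31, Vmn1r34 and Vmn1r39. RefSeq windows of 300 bases, from 250 before to 50 after the annotated start, were at hand for 46 members. There was no entry for Vmn1r2, Vmn1r3, Vmn1r8, Vmn1r10, Vmn1r16, Vmn1r23, Vmn1r39 and Vmn1r53. In 38 of the 46 windows the annotated start is the letters ATG, against 5.83% of all 32851 windows of the table. For those 38 genes the window thus ends in what reads as the first coding bases, and its first 250 bases lie before the start codon of the gene model and need not be a promoter.

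Pairs of neighbouring members can be nearly the same in these windows. Of 1035 pairs, 7 were at least 90% identical, counted as 300 minus the edits of a global alignment, over 300, while the median pair was 48.3% identical. The following sequences are shown because they are the pairs whose signals are set side by side further on. Vmn1r47 and Vmn1r48 have the same window to the letter (GRCm38.p6, chr6:90021638-90021937, plus strand, and chr6:90036792-90037091, minus strand), with the start codon in capitals here.
Vmn1r47 and Vmn1r48: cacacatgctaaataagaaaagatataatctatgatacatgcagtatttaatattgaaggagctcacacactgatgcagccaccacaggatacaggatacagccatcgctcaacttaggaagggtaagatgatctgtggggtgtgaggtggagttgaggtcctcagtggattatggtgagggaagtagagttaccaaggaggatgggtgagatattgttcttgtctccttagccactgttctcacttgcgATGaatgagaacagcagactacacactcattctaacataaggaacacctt
Vmn1r17 (chr6:57361329-57361628, minus strand) and Vmn1r31 (chr6:58472829-58473128, minus strand) differ by 23 edits and are 92.3% identical. In this pair and the next, capitals mark bases that differ from the partner or are absent from it.
Vmn1r17: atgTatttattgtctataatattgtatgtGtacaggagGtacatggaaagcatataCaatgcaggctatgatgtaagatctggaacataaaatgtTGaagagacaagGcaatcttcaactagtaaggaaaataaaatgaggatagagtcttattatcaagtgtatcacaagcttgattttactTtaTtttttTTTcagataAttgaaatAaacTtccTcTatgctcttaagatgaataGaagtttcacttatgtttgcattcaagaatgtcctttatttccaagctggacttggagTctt
Vmn1r31: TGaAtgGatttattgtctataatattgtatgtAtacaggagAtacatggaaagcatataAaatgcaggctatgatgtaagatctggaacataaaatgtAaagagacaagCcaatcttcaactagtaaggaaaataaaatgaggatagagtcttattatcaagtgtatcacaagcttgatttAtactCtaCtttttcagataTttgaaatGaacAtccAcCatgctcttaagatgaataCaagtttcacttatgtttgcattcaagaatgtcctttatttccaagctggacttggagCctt
Vmn1r25 (chr6:57979253-57979552, minus strand) and Vmn1r30 (chr6:58435796-58436095, minus strand) differ by 22 edits and are 92.7% identical.
Vmn1r25: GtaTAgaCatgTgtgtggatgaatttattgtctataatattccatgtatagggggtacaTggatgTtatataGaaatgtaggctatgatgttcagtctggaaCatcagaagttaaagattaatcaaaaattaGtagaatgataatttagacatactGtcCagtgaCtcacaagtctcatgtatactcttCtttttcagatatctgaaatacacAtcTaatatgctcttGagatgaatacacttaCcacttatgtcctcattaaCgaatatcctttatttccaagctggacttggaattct
Vmn1r30: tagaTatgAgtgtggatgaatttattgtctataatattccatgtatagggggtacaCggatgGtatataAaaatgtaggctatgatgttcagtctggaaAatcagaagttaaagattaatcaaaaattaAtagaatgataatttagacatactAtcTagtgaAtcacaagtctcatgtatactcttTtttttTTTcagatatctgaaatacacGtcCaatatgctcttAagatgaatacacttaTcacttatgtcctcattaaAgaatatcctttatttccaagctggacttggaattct
Vmn1r36 (chr6:66716840-66717139, minus strand) and Vmn1r37 (chr6:66731142-66731441, plus strand) differ by 14 edits and are 95.3% identical, with capitals used in the same way.
Vmn1r36: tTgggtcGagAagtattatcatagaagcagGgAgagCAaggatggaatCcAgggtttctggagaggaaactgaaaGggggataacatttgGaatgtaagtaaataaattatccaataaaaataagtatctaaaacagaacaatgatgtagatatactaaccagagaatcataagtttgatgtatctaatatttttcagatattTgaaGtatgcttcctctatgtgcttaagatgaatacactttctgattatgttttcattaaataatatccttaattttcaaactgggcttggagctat
Vmn1r37: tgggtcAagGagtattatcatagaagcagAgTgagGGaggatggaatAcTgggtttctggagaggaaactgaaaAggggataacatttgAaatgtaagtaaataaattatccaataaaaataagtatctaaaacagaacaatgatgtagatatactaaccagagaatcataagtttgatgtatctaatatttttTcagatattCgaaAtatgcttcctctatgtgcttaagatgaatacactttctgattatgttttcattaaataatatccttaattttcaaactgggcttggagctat

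Motifs were searched on both strands in the 46 windows. The AP-2 core GCCNNNGGC matched in 0 of 46 windows, against 16.6% of all windows in the table, and the EBF motif in 0 against 0.904%. The homeodomain core TAATTA matched in 6 windows (13.0%, against 5.29%), those of Vmn1r9, Vmn1r11, Vmn1r12, Vmn1r14, Vmn1r19 and Vmn1r32. The MEIS core TGACAG matched in 5 (10.9%, against 19.2%) and TATAAA in 15 (32.6%, against 13.6%). The windows of the members had a median GC content of 32.2%, against 52.7% for all windows, and these shares move with base composition. A match is only a run of letters, and its absence says nothing of what binds elsewhere.

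The members differed widely in signal, though none reached the brightest genes of these arrays, whose means ran up to 13.92. Their means over the 6 arrays ran from 1.501 for Vmn1r23 to 10.81 for Vmn1r37, with a median of 5.85, and 8 members lay above 8. These 8 were Vmn1r37, Vmn1r39 (10.12), Vmn1r27 (9.81), Vmn1r18 (9.76), Vmn1r43 (9.07), Vmn1r33 (9.06), Vmn1r36 (8.35) and Vmn1r38 (8.24). Signals of different probe sets depend on the probes, so this order is one of signals and not of transcript numbers. At the other end, Vmn1r8, Vmn1r23, Vmn1r49 and Vmn1r53 lay under the lower quartile of all probe sets on all 6 arrays, 7 members did so on some arrays, and 43 lay above it on every array. The block of 8 was the brightest, with a median of 8.29, against 5.84 for Vmn1r4 to Vmn1r31 and 5.65 for Vmn1r40 to Vmn1r54.

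**Figure D1:**
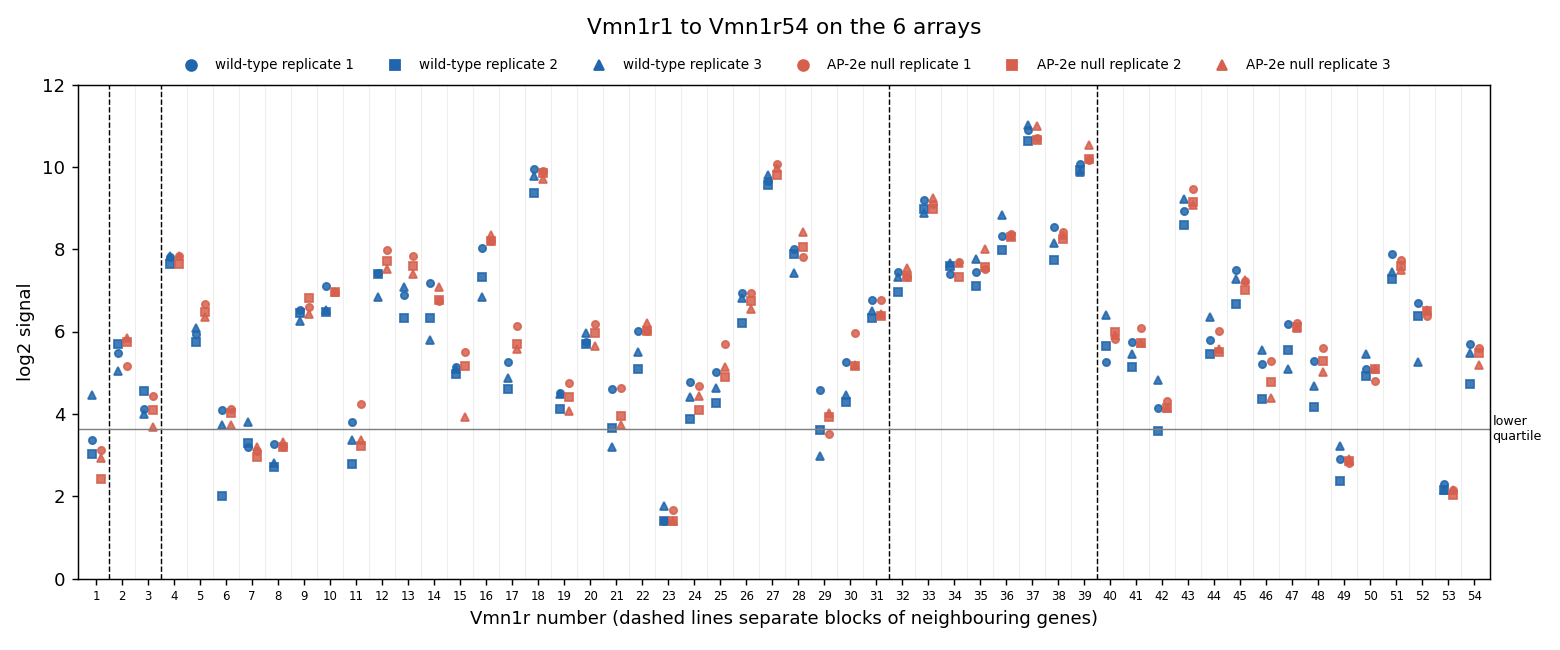
Log2 signal of each of the 54 members (x axis, Vmn1r number) on the 6 arrays; each point is 1 array, blue for wild-type and red for AP-2e null, with the replicate shown by its shape. Signals differ far more between members (1.501 to 10.81 in the mean) than between genotypes, and the block between Vmn1r32 and Vmn1r39 is the brightest.

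No member of Vmn1r1 to Vmn1r54 passed the test between the genotypes, and most had slightly higher means without AP-2e. Of the 54 members, 42 had a higher mean and 12 a lower mean in AP-2e null VNOs. Their median difference was 0.14 and their mean difference 0.20 on the log2 scale. Over all 22180 genes the median was -0.001 and 49.4% were higher. The members' values leaned on 1 array: without wild-type replicate 2, 32 members were higher and the median was 0.04. None of the 54 was called in limma, in either direction: 0 rose and 0 fell at an adjusted p under 0.05, and the smallest adjusted p was 0.659. Over all genes 0.225% were called, 0.00902% higher and 0.216% lower. At an unadjusted p under 0.05 there were 7 members (13.0%), all higher, where 4.4% of all genes reached it, 1.9% higher and 2.49% lower. All 3 AP-2e null arrays lay above all 3 wild-type arrays for 7 members and below them for 1, against 3.42% and 3.64% of all genes. In whole organs, more cells of a type and more RNA per cell cannot be told apart.

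How far single differences are bounded varied among the members. The 95% confidence interval of limma lay inside 1 log2 unit in either direction for 36 of the 54, so a doubling or halving lay outside it for these. It was widest for Vmn1r6, from -0.69 to 2.07, and narrow for Vmn1r53, from -0.26 to 0.08, a member whose signal lay near the bottom of the scale. Of the members, 11 differed by more than 0.5 upward and 1, Vmn1r1, by more than 0.5 downward. Over all 22180 genes, 257 and 293 did so. The median SE was 0.215 for the members and 0.103 for all genes, so the members were measured less precisely. By brightness, the median difference was 0.17 in the 18 brightest members, 0.24 in the middle 18 and 0.04 in the 18 dimmest. The 7 with a small p comprised 5 of the brightest, 2 of the middle and 0 of the dimmest.

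**Figure D2:**
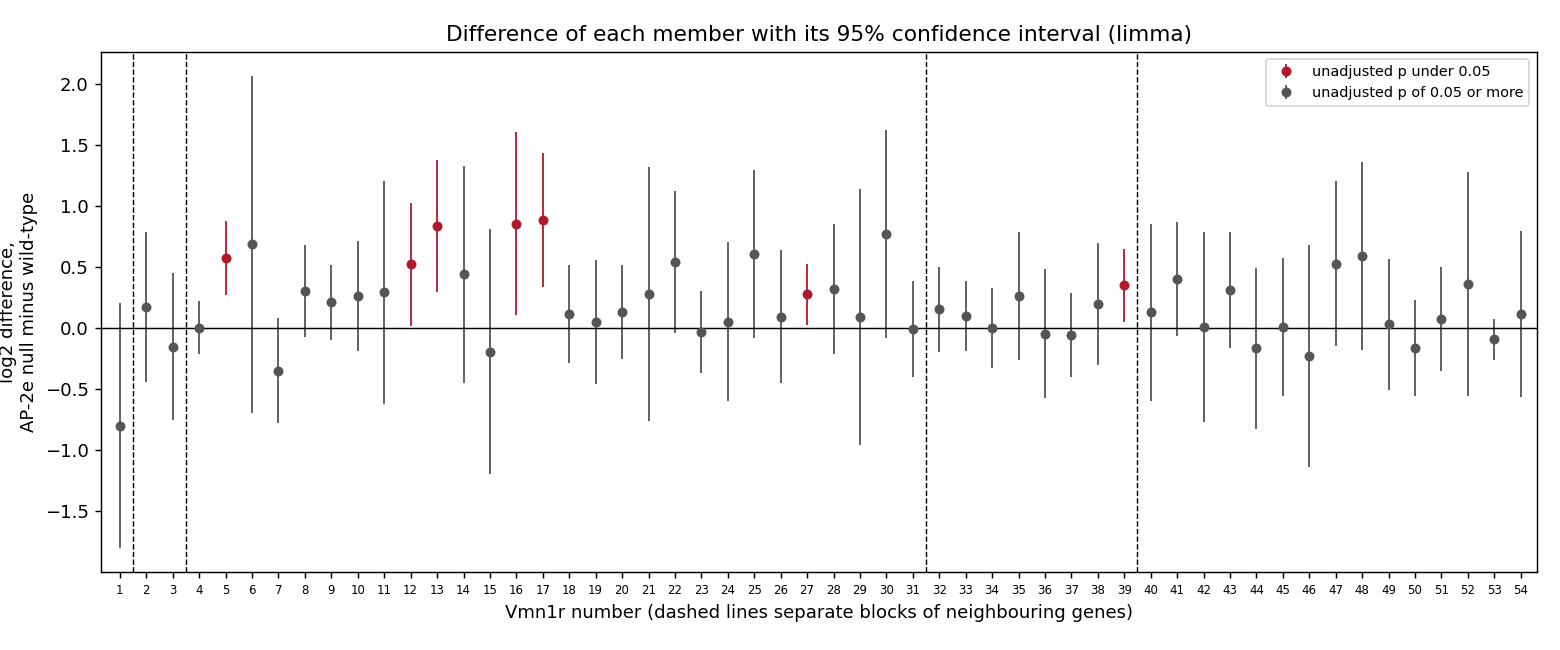
Log2 difference (AP-2e null minus wild-type) of each member with its 95% confidence interval from limma, in order of number; dashed lines separate the blocks. The 7 members in red had an unadjusted p under 0.05, and 6 of them lie between Vmn1r4 and Vmn1r31, but none passed the adjustment over all genes.

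The block Vmn1r4 to Vmn1r31 held the largest differences. Of its 28 genes, 24 were higher in the mean and 4 lower in AP-2e null VNOs, with a median difference of 0.28, and 6 of the 7 members with a small unadjusted p were here. That median was 0.17 without wild-type replicate 2 and likewise without wild-type replicate 3, 0.47 without wild-type replicate 1, and 0.16 with array weights. Vmn1r17, once named V1rc16, read 5.27, 4.60 and 4.88 in wild-type VNOs and 6.13, 5.69 and 5.58 without AP-2e, with values here and further on in the order of replicates 1, 2 and 3. Every AP-2e null value of this receptor lay above every wild-type value. Its means of 4.92 ± 0.33 and 5.80 ± 0.29 (SD, n = 3 each) gave a difference of 0.88 (SE 0.22), or 1.84-fold. The unadjusted p of limma for this gene was 0.00805 and the adjusted p 0.873. Vmn1r13 (V1rc5) read 6.89, 6.34 and 7.07 in wild-type VNOs and 7.83, 7.59 and 7.40 in null VNOs, again without overlap. Its difference was 0.84 (SE 0.22), with an adjusted p of 0.873 in limma. Vmn1r5 (V1rc19) read 5.94, 5.75 and 6.08 in wild-type VNOs and 6.67, 6.48 and 6.35 in null VNOs. This receptor had the smallest p of all members, with a difference of 0.58 (SE 0.12), an unadjusted p of 0.00375 and an adjusted p of 0.659 in limma.

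Vmn1r5, Vmn1r13 and Vmn1r17 kept an unadjusted p under 0.05 in all 15 alternatives, those that leave out an array included, though none gave an adjusted p under 0.05. The other 4 of the 7 members depended more on single arrays. Without wild-type replicate 2 only these 3 were at a p under 0.05 and without AP-2e null replicate 1 there were 4 (the same 3 and Vmn1r39), while without wild-type replicate 1 there were 16.

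Vmn1r16 (V1rc29) read 8.03, 7.32 and 6.83 in wild-type VNOs and 8.20, 8.19 and 8.35 in null VNOs. The AP-2e null arrays stood close together for this gene, with an SD of 0.09 against 0.61 in wild-type, and the lowest of them lay above wild-type replicate 1 by less than the wild-type spread. Its difference was 0.86 (SE 0.30), with an adjusted p of 0.873 in limma. Vmn1r12 read 7.43, 7.40 and 6.83 in wild-type VNOs and 7.98, 7.72 and 7.52 in null VNOs, which do not overlap, a difference of 0.52 (SE 0.20) that was 0.33 without wild-type replicate 3. Vmn1r27 (V1rc33), the brightest member of the block, read 9.66, 9.57 and 9.80 in wild-type VNOs and 10.08, 9.80 and 9.98 in null VNOs. Its difference of 0.28 (SE 0.10) was small, and wild-type replicate 3 and AP-2e null replicate 2 met at the edge of the groups. The adjusted p of both was 0.873 in limma.

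**Figure D3:**
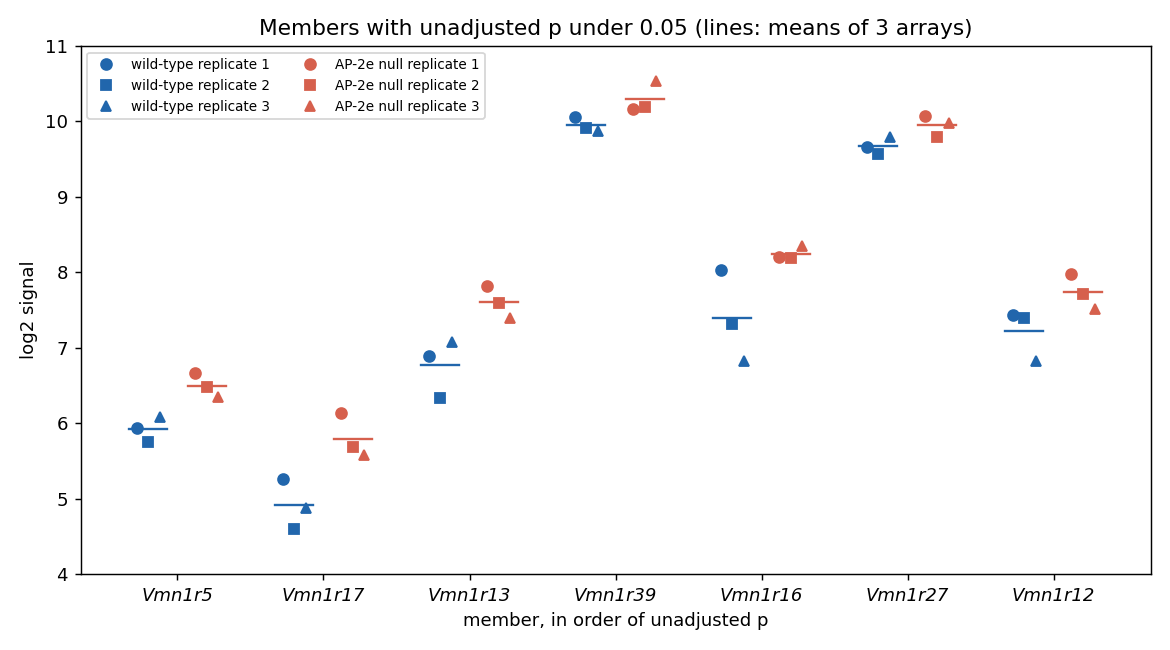
Log2 signal of the 7 members with an unadjusted p under 0.05, on each array (points) with the mean of the 3 arrays of a genotype (lines). The AP-2e null points lie above the wild-type points for 6 of the 7, and for Vmn1r27 they meet at 9.80.

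The remaining 22 members of the block had differences between -0.35 and 0.77. Vmn1r30 read 5.26, 4.28 and 4.45 in wild-type VNOs and 5.97, 5.16 and 5.18 in null VNOs, so the groups overlapped through wild-type replicate 1, and its difference was 0.77 (SE 0.34), or 0.51 without AP-2e null replicate 1. Vmn1r22 read 6.002, 5.09 and 5.51 in wild-type VNOs and 6.003, 6.02 and 6.20 in null VNOs, without overlap by a margin of 0.001, and differed by 0.54 (SE 0.23). Vmn1r6 read 4.09, 1.99 and 3.73 in wild-type VNOs and 4.12, 4.02 and 3.73 in null VNOs. Wild-type replicate 2 alone was low for this receptor, and without that array the difference went from 0.69 to 0.05. Vmn1r29 had the widest wild-type spread after it, at 4.59, 3.60 and 2.97, against 3.51, 3.91 and 4.02 in AP-2e null VNOs. The groups of Vmn1r29 overlapped fully and the difference was 0.09 (SE 0.42).

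Some other members of this block were lower or differed little. Vmn1r7 read 3.20, 3.29 and 3.79 in wild-type VNOs and 3.10, 2.95 and 3.19 in null VNOs. It was the 1 member whose AP-2e null values all lay below the wild-type values, by 0.01 at the closest, with a difference of -0.35 (SE 0.17) and an adjusted p of 0.873 in limma, and 5 of its 6 values were under the lower quartile of all probe sets. Without wild-type replicate 3 its difference was -0.165. Vmn1r15 read 5.13, 4.97 and 5.08 in wild-type VNOs and 5.49, 5.16 and 3.94 in null VNOs. AP-2e null replicate 3 set its negative difference of -0.19 (SE 0.40), which was 0.27 without that array. Vmn1r18 (V1rc26), a bright member, read 9.96, 9.37 and 9.77 against 9.90, 9.85 and 9.69, a difference of 0.11 (SE 0.16) whose interval ran from -0.29 to 0.51. Vmn1r4, Vmn1r31 and Vmn1r23 differed by 0.01, -0.01 and -0.03. The 12 others of the block were Vmn1r8 to Vmn1r11, Vmn1r14, Vmn1r19 to Vmn1r21, Vmn1r24 to Vmn1r26 and Vmn1r28, with differences from 0.05 for Vmn1r19 to 0.61 for Vmn1r25.

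The bright block Vmn1r32 to Vmn1r39 had small differences. Of its 8 genes 6 were higher and 2 lower in the mean, between -0.06 and 0.35, with a median of 0.13, and without wild-type replicate 2 the median was 0.02. Vmn1r39 read 10.06, 9.91 and 9.87 in wild-type VNOs and 10.17, 10.19 and 10.53 in null VNOs. This gene did not overlap between the genotypes and had a difference of 0.35 (SE 0.12), with an unadjusted p of 0.0286 and an adjusted p of 0.873 in limma. Without AP-2e null replicate 3 the difference was 0.23. Vmn1r37 (V1rc10), the member with the highest signal, read 10.88, 10.63 and 11.01 against 10.71, 10.65 and 10.99. The AP-2e null values lay inside the wild-type range, and the difference of -0.06 had an interval from -0.40 to 0.28. Vmn1r36 read 8.33, 7.97 and 8.82 against 8.36, 8.29 and 8.33, Vmn1r38 read 8.53, 7.75 and 8.15 against 8.42, 8.25 and 8.35, and Vmn1r33 read 9.19, 8.97 and 8.87 against 9.11, 8.96 and 9.25. For these 3 the differences were -0.05, 0.19 and 0.10, each smaller than its SE, which was 0.21, 0.20 and 0.12. With single arrays left out, that of Vmn1r33 went from 0.025 to 0.189 and those of Vmn1r36 and Vmn1r38 changed sign. The other 3, Vmn1r32, Vmn1r34 and Vmn1r35, differed by 0.15, 0.003 and 0.26.

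The block Vmn1r40 to Vmn1r54 holds the genes of the older V1ra and V1rb names, and mice that lack a stretch of V1ra and V1rb genes have been reported to show altered mating and maternal behaviour. Here 11 genes were higher and 4 lower in the mean, 0 had an unadjusted p under 0.05 and 0 of the 15 separated the genotypes without overlap. The median difference was 0.07, and without wild-type replicate 2 it was -0.12. Vmn1r43, the brightest of the block, read 8.92, 8.59 and 9.22 in wild-type VNOs and 9.46, 9.14 and 9.06 in null VNOs, a difference of 0.31 (SE 0.19). Without wild-type replicate 2 it was 0.15, without wild-type replicate 3 it was 0.47, and without AP-2e null replicate 1 it was 0.19. Vmn1r44 read 5.80, 5.45 and 6.36 against 6.02, 5.51 and 5.58, a difference of -0.17 (SE 0.26). Vmn1r46 read 5.20, 4.37 and 5.55 against 5.27, 4.77 and 4.40, a difference of -0.23 (SE 0.37). In both of these, wild-type replicate 3 was the highest array, and without it the differences were 0.08 and 0.03. The 8 genes with V1ra names alone had a median difference of 0.21, the 4 with V1rb names alone -0.03, and the 3 with both -0.16.

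The largest upward differences of this block were those of Vmn1r48 (0.59, SE 0.31), Vmn1r47 (0.53, SE 0.27) and Vmn1r41 (0.40, SE 0.19). Vmn1r52, at 0.36, had a wild-type SD of 0.75 and an AP-2e null SD of 0.08, with wild-type replicate 3 low at 5.26. Vmn1r40, Vmn1r42, Vmn1r45, Vmn1r49, Vmn1r51 and Vmn1r54 differed by 0.01 to 0.13. Vmn1r50 differed by -0.16 and Vmn1r53 by -0.09, the last with signals between 2.03 and 2.29 on every array.

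None of the 3 members outside these blocks separated the genotypes, too few genes to set against the shares over all genes (3.42% above and 3.64% below). Vmn1r1 read 3.37, 3.04 and 4.45 in wild-type VNOs and 3.12, 2.42 and 2.92 in null VNOs. Its mean was lower by the widest margin of all members, -0.80 (SE 0.40), but wild-type replicate 3 alone stood high, the groups overlapped, and without that array the difference was -0.38. Its values lay under the lower quartile of all probe sets on 5 of 6 arrays, and the adjusted p was 0.873 in limma. Vmn1r2 read 5.48, 5.71 and 5.03 against 5.17, 5.73 and 5.83, a difference of 0.17 (SE 0.25). Vmn1r3 read 4.12, 4.55 and 3.99 against 4.44, 4.10 and 3.67, a difference of -0.15 (SE 0.24).

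Single arrays weighed on the members together. The mean over the 54 members was 6.14, 5.68 and 5.95 in wild-type VNOs and 6.24, 6.06 and 6.06 in AP-2e null VNOs, so wild-type replicate 1 lay above 2 of the AP-2e null arrays. Wild-type replicate 2 was the lowest of the 6 arrays for 30 members and the highest for 1. AP-2e null replicate 1, the array with high Xist signal, was the highest for 19. Without wild-type replicate 2, the count of higher members went from 42 to 32 and the median difference from 0.14 to 0.04. Without AP-2e null replicate 1 the count was 34 and the median 0.13.

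Wild-type replicate 2 was high in Cnga2 and Gnal, markers of the main olfactory epithelium, a tissue that lies near the VNO. The mean of the 3 main olfactory neuron markers measured was 7.17 on wild-type replicate 2 and 5.32 and 6.05 on the other wild-type arrays, and 6.002, 6.88 and 6.90 on the AP-2e null arrays. Gnal, the G protein of olfactory neurons, read 7.55 on wild-type replicate 2 and 4.35 and 5.88 on the other wild-type arrays. Cnga2 read 5.75 there and 3.36 and 3.82 on the other wild-type arrays. The remaining marker, Rtp2, went the other way, with 8.195 there and 8.24 and 8.457 on the other wild-type arrays. Markers of supporting cells averaged 7.65 there and between 6.44 and 7.53 elsewhere, and those of skeletal muscle 6.08 there and between 4.84 and 5.53 elsewhere. Other lists also differed in their means between the genotypes. All 5 immune cell markers had higher means in null VNOs (median difference 0.27), and their mean was 7.16 to 7.49 on wild-type and 7.58 to 7.68 on AP-2e null arrays, without overlap. All 4 endothelial markers had higher means (0.13), while all 5 multiciliated cell markers (-0.30) and all 5 skeletal muscle markers (-0.38) had lower ones, with overlapping array means in each. All 5 cartilage markers had higher means (0.50). Their mean was 7.898 on AP-2e null replicate 2 and 5.427 to 5.825 on the other arrays. None of the genes in these lists was called in limma, and 1 immune marker had an unadjusted p under 0.05. The part of these cells in the V1R differences was not tested. The spread was also wider in wild-type: the wild-type SD was above the AP-2e null SD for 41 of the 54 members, with median SDs of 0.34 and 0.20, where 55.9% of all genes had the larger SD in wild-type (medians 0.125 and 0.107).

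**Figure D4:**
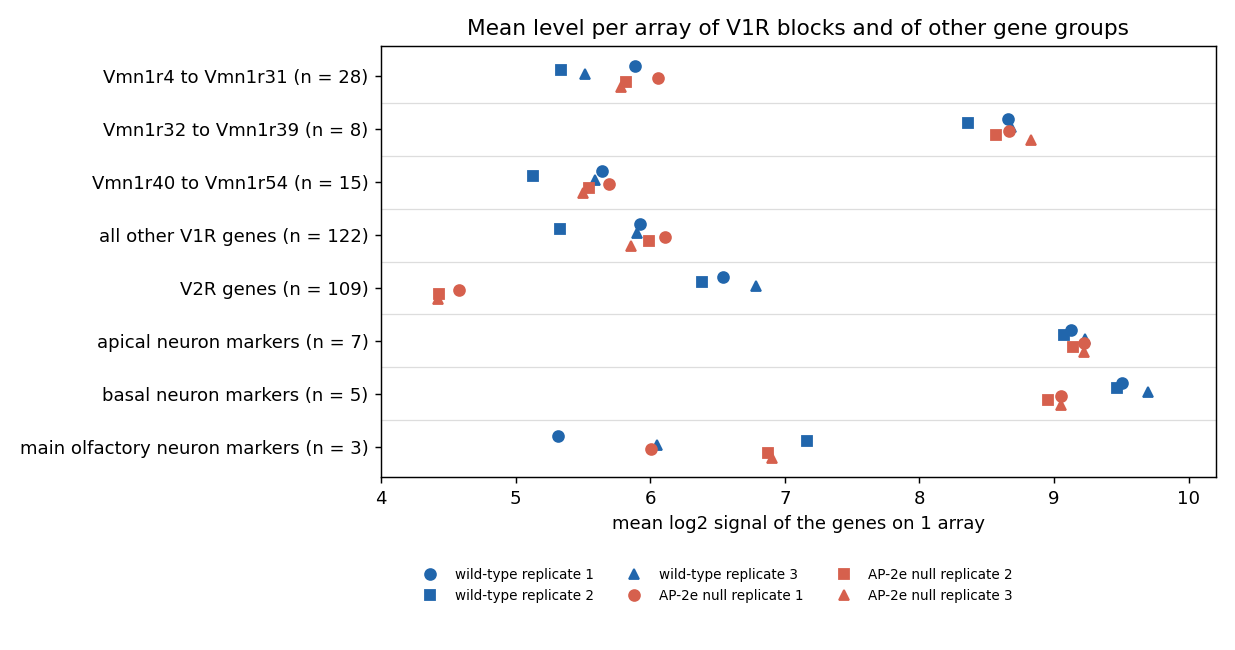
Mean log2 signal per array (x axis) of 3 blocks of the members and, for comparison, of other V1R genes, V2R genes and marker lists; each point is 1 array, blue for wild-type and red for AP-2e null. Wild-type replicate 2 (blue square) is the lowest array in all 3 blocks and in the other V1R genes. It is the highest in main olfactory neuron markers (7.17), with AP-2e null replicates 2 and 3 next (6.88 and 6.90). V2R genes and basal neuron markers separate the genotypes.

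For 10 members the deposited table holds the same value on more than 1 array. They were Vmn1r4, Vmn1r10, Vmn1r11, Vmn1r23, Vmn1r32, Vmn1r36, Vmn1r42, Vmn1r50, Vmn1r53 and Vmn1r54. Vmn1r10 read 6.96 on all 3 AP-2e null arrays, with an SD of 0.00, against 7.11, 6.47 and 6.52 in wild-type. How equal values arose was not tested. Some ties lie within a genotype and others, as in Vmn1r11, between genotypes. None of the 7 members with a small p was among them.

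The 7 pairs with nearly the same sequence around the start can be set side by side. Vmn1r47 read 6.17, 5.56 and 5.08 in wild-type VNOs and 6.21, 6.10 and 6.09 in null VNOs, and Vmn1r48, whose window is the same, read 5.28, 4.17 and 4.67 against 5.59, 5.29 and 5.01. Their differences were 0.53 and 0.59. Vmn1r25 read 5.02, 4.26 and 4.62 against 5.70, 4.89 and 5.13, and like its partner Vmn1r30 it was lowest on wild-type replicate 2 and highest on AP-2e null replicate 1. Vmn1r36 and Vmn1r37 differed by -0.05 and -0.06 while their mean signals, 8.35 and 10.81, lay far apart. In Vmn1r20 and Vmn1r27 the differences were 0.13 and 0.28, in Vmn1r45 and Vmn1r51 0.01 and 0.07, and in Vmn1r12 and Vmn1r14 0.52 and 0.44.

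Vmn1r17 and Vmn1r31 had the widest gap of the 7 pairs. Vmn1r31 read 6.78, 6.33 and 6.49 in wild-type VNOs and 6.76, 6.38 and 6.42 in null VNOs, a difference of -0.01 (SE 0.16), against 0.88 for Vmn1r17; the gap between these was not tested. Over the 7 pairs at 90% or more the median gap between the 2 differences was 0.08, and over all 1035 pairs it was 0.29. Each of the 7 pairs lies within a block, while the 1035 include pairs across blocks, so the 2 sets are unlike in this too. Pairs share genes, and alike genes can share target for their probes, so these gaps are a description. How alike the probed parts of the transcripts are was not analysed here, and the values of near-identical members are uncertain.

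The other V1R genes also had mostly higher means, on the same arrays. Vmn1r55 to Vmn1r185 had a median difference of 0.27 over 73 genes, with 60 higher, and the V1R genes from Vmn1r186 on had 0.21 over 49 genes, with 40 higher. These too rested on wild-type replicate 2: without it the medians were 0.04, with 45 higher, and -0.02, with 23 higher. The shares at an unadjusted p under 0.05 were 13.0%, 19.2% and 12.2%, with 0 genes called in each. The difference between these groups was not tested. The V2R genes of the basal neurons went the other way, with a median difference of -1.78 over 109 genes and 42 called lower. Of the other genes that lie between the members in the RefSeq order, 6 were measured. The non-receptor genes Herc6, Lancl2, Ppm1k, Pyurf and Vopp1 lie within the block of 28. They had a median difference of 0.03 and values between -0.13 and 0.15. Of these genes 0 had an unadjusted p under 0.05, where 4.4% of all genes did.

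Among listed genes of transduction and receptor trafficking in V1R neurons, none was called. This list is not confined to apical neurons. Trpc2, Gnb1, Ano1, Ano2 and Reep1 were also listed as markers of mature sensory neurons, and Rtp2 as a marker of main olfactory neurons. Of 17 measured genes of transduction and receptor trafficking, 8 were higher and 9 lower, with a median difference of -0.02, 0 called in either direction in limma, and 2 higher and 1 lower at an unadjusted p under 0.05. Gng2, a G protein gamma subunit of apical neurons, read 7.63, 7.26 and 7.54 in wild-type VNOs and 7.96, 7.77 and 7.79 in null VNOs, a difference of 0.36 (SE 0.12). Rtp1, which helps chemosensory receptors reach the cell surface, read 10.59, 10.40 and 10.45 against 10.97, 10.82 and 10.97, a difference of 0.44 (SE 0.08) and an adjusted p of 0.370 in limma. Ano2, a calcium-activated chloride channel, read 8.27, 8.33 and 8.54 against 7.93, 7.98 and 8.02, a difference of -0.40 (SE 0.09) with an adjusted p of 0.705 in limma. For these 3 genes the genotypes did not overlap. Of the 17, all AP-2e null arrays lay above all wild-type arrays for 2 (Gng2 and Rtp1) and below for 2 (Ano2 and Gnb1). The shares over all genes were 3.42% and 3.64%. Gnai2 differed by 0.11 (SE 0.09) and Trpc2 by -0.04 (SE 0.11), with overlap. Omp, the marker of mature neurons, differed by -0.41 (SE 0.19), without overlap and with an adjusted p of 0.873 in limma.

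Of the 7 apical markers 4 were higher and 3 lower, with 0 called and a median difference of 0.08. Meis2, a transcription factor of apical neurons, differed by 0.26 (SE 0.09) and Kirrel2, an axon sorting molecule, by -0.35 (SE 0.13), each with an adjusted p of 0.873 in limma. Of the 5 basal markers 4 were lower and 1 higher, with 0 called, 4 at an unadjusted p under 0.05 and a median difference of -0.50. They were Calr4 (-1.10), Gnao1 (-0.68), Kirrel3 (-0.50) and Robo2 (-0.49). Over the array means, the apical list read 9.12, 9.08 and 9.23 in wild-type VNOs and 9.22, 9.14 and 9.22 in null VNOs. Its lowest array was wild-type replicate 2, as for the members. Among wild-type arrays, that array was also the lowest for the basal list, at 9.47 against 9.51 and 9.70. The same held for the V2R genes, at 6.39 against 6.54 and 6.78. The 11 measured genes of progenitors and immature neurons had a median difference of 0.05 and the 13 transcription factors of neuron identity 0.03, with 0 called in each.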

How the data were processed

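Per the labels, total RNA of 3 wild-type and 3 AP-2e null VNO samples at postnatal day 17 was labelled for Affymetrix whole-transcript arrays. The deposited values are log2 signals per probe set, made with RMA and the Transcriptome Analysis Console per the submitters' processing notes; the sources used here give no versions, settings or genome build. Of 41345 probe sets, 23521 name 1 gene, 1814 several and the rest none. The probe set with the highest mean per gene was kept, which left 22180 genes.

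The fit used lmFit and eBayes of limma 3.58.1 (R 4.3.3), without covariates and 2-sided, with Benjamini-Hochberg adjustment over all 22180 genes, and a gene was called at an adjusted p under 0.05. The script was tested on simulated data. Every difference takes wild-type from AP-2e null. The alternatives were averaging probe sets within genes, every 1-gene probe set by itself, no genes among the dimmest 30%, median centring, repeated quantile normalization, cyclic loess, trend and robust moderation, array weights, the replicate number as a block, and each array left out.

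Named members were those with an unadjusted p under 0.05, the 8 brightest, the 5 largest differences each way and the 3 with the widest spread; others were named after their values were seen. The members and lists were chosen with earlier results of these data known. Printed sequences are from RefSeq (GRCm38.p6). They were picked for window likeness after the values were seen, in place of proteins, which were not used here. Plots were drawn with matplotlib 3.10.9.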

Additional observations from a re-analysis of the deposited data

How the results depend on the processing

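No member was called under any of the 15 alternatives, where the smallest adjusted p of any member was 0.197 in limma (0.242 among named members). The median difference over the members kept its sign, from 0.04 (without wild-type replicate 2) to 0.26 (without wild-type replicate 1), and 32 to 45 members were higher with an array left out. The number of higher members at an unadjusted p under 0.05 was 7 with all arrays and went from 3 to 16 with an array left out, and the number of lower ones was 0 in each of these. Over all genes, 48 lower and 2 higher genes were called, and with an array left out 17 to 32 and 0 to 1. The higher calls were 1 with mean probe sets, with every probe set by itself and with array weights, and 4 with median centring, quantile normalization and cyclic loess. The labels do not say whether replicate numbers pair the arrays. Deviations of same-numbered arrays correlated over genes at 0.04, 0.11 and 0.019, and those of differently numbered arrays at -0.193 to 0.122. These values cannot show whether arrays shared a litter or a batch. With the replicate block, 22 lower and 0 higher genes and 0 members were called, 1 lower member (Vmn1r7) had an unadjusted p under 0.05, and the higher ones included 4 that lacked it without the block. Of 21 named members 13 kept their direction throughout and 8 changed sign somewhere. With array weights Vmn1r29 was at -0.18 and Vmn1r36 at 0.014. With an array left out, the ranges were -0.51 to 0.27 for Vmn1r15, -0.051 to 0.242 for Vmn1r18, -0.28 to 0.53 for Vmn1r29, -0.25 to 0.18 for Vmn1r36, -0.164 to 0.029 for Vmn1r37, -0.003 to 0.39 for Vmn1r38, -0.377 to 0.078 for Vmn1r44 and -0.564 to 0.026 for Vmn1r46. The cause of these moves was not tested, and 3 arrays per genotype limit the precision. Leaving arrays out for the other V1R genes was chosen after seeing the data. Of the 54 members, 40 were tested without the dimmest 30% of genes, so Vmn1r1, Vmn1r6, Vmn1r7 and Vmn1r29 have no value there.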

Other observations

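V1ra8, a receptor gene of the older naming that the table lists among Vmn1r40 to Vmn1r54, read 6.18, 5.16 and 5.41 in wild-type VNOs and 5.91, 5.98 and 5.89 in null VNOs. Its difference was 0.35 (SE 0.26), with overlapping groups, and like most members it was lowest on wild-type replicate 2.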
